A study of Mus musculus with 2 samples.

Results

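The circadian clock genes Ciart, Per1, Per2, Per3, Cry1, Cry2, Nr1d1, Nr1d2, Dbp and Arntl were described in CD45+ leukocytes of mouse colorectal tumor tissue. The 10 genes were taken from a list of symbols, each symbol was found in the files, and they stand among 30905 genes in all. The FMD library came from mice on a fasting-mimicking diet, a short low-calorie diet that imitates fasting, and the other library from mice fed ad libitum. All mice were male C57BL/6. Each library pooled the cells of 4 mice and was made once, with droplet-based 3′ single-cell chemistry that tags each RNA molecule. Mice of both groups had received 12 mg/kg of azoxymethane (AOM), which starts colon tumors, followed by 3 cycles of drinking water with 2.5% DSS, an irritant of the gut lining, for 7 days and plain water for 14 days. The diets began with the second cycle. The time of day at which mice were killed is not given in the sources used here, so diet and hour of collection cannot be told apart. The labels name colorectal cancer tissue, while the extraction text also speaks of normal colon.

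Most mouse cells keep a daily clock. In its core loop the CLOCK and BMAL1 proteins (BMAL1 is encoded by Arntl) switch on the Per and Cry genes through DNA elements called E-boxes, and PER and CRY proteins return to block them. CIART adds to this block. In a second loop NR1D1 and NR1D2, also called REV-ERBα and REV-ERBβ, repress Arntl, against activators such as RORA. DBP carries the rhythm to output genes through D-box elements. In immune cells NR1D1 is known for restraint of type 17 T cells through Nfil3, feeding time is known to shift clocks in many organs, and Per1 also answers glucocorticoids and cAMP within minutes to hours.

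After removal of cells with few genes, many mitochondrial reads or the markers of several lineages, 4592 FMD and 4852 ad libitum cells were kept, with 31596592 and 32979845 UMIs (unique molecular identifiers, each standing for 1 captured RNA molecule). Median depth was 5731 UMIs per FMD cell and 5501.5 per ad libitum cell. Ptprc, the gene of CD45, had a UMI in 93.5% of FMD and 91.9% of ad libitum cells. Both libraries held 7 barcodes in common. Levels are in CPM, a gene's UMIs in a class scaled by the UMIs of that class outside immunoglobulin and mitochondrial genes. A ratio is the log2 of the FMD level divided by the ad libitum level, with its 95% counting interval in brackets. With 1 library per diet there is no test between diets: each difference is between these libraries, and the intervals cover counting error only. Cell classes were rebuilt from markers and are called X-like. None of the 10 genes was among the 2000 variable genes that formed the clusters.

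Per1, an early-responding repressor, was the most abundant of the 10, with 3609 UMIs in 2237 FMD cells (124 CPM) and 3803 UMIs in 2427 ad libitum cells (129 CPM). Nr1d2 held 1349 UMIs in the FMD library and 1273 in the ad libitum library. Cry1 held 995 UMIs in FMD and 866 in ad libitum cells, Ciart 843 in FMD and 1007 in ad libitum cells, and Arntl 608 in FMD and 645 in ad libitum cells. The other 5 genes were sparse. Nr1d1 had 341 UMIs in FMD cells and 256 in ad libitum cells, and Cry2 had 277 and 267. Dbp reached 218 FMD UMIs against 190 ad libitum UMIs, Per2 105 against 91, and Per3 73 against 90. Levels of the sparse genes therefore carry wide counting intervals.

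**Figure D1:**
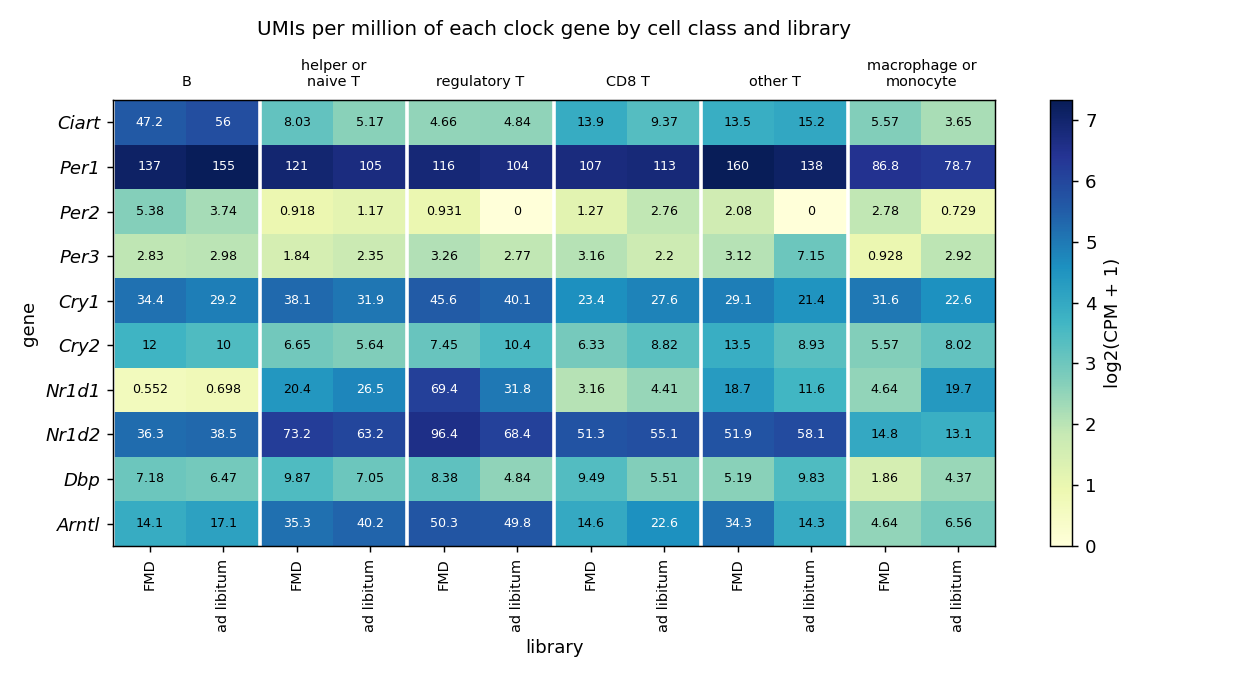
Level of each clock gene (rows) in the 6 classes that reached 100 cells in both libraries (column pairs, FMD left of ad libitum), in CPM as printed and in color as log2(CPM + 1). Per1 is high in every column, Ciart stands out in B-like cells, and Nr1d1 reaches 69.4 CPM in FMD regulatory T-like cells against 0.552 CPM in FMD B-like cells.

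Ciart, a repressor of CLOCK and BMAL1, was foremost a B cell transcript here. B-like cells had 684 Ciart UMIs in the FMD library (47.2 CPM [43.7, 50.9]) and 883 in the ad libitum library (56.0 CPM [52.4, 59.9]). Helper or naive T-like cells had 35 UMIs (8.03 CPM [5.59, 11.2]) in the FMD library and 22 (5.17 CPM [3.24, 7.82]) in the ad libitum library. The B-like level was thus 5.88-fold the helper T-like level in FMD cells and 10.8-fold in ad libitum cells, or 2.56 and 3.44 on the log2 scale. These log2 values were 1.74 in FMD and 2.40 in ad libitum with doublets kept, and 2.05 in FMD and 1.97 in ad libitum with cells thinned to 1000 UMIs. With doublets kept the cells were clustered anew, and a cluster led by Igfbp4 and Lef1 then fell outside the helper or naive T-like class. Regulatory T-like cells had 4.66 CPM in the FMD and 4.84 CPM in the ad libitum library, and macrophage or monocyte-like cells had 5.57 CPM in the FMD and 3.65 CPM in the ad libitum library. Germinal center B-like cells, which are few, had 34.3 CPM from 46 UMIs in the FMD library and 20.5 CPM from 19 UMIs in the ad libitum library. Plasma-like cells, which make antibody, had 5.13 CPM in the FMD library (3 UMIs) and 10.7 CPM in the ad libitum library (15 UMIs).

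RNA released from broken cells can add B cell transcripts to T cells. The summed level of 6 B cell markers in helper or naive T-like cells was 0.714% of that in B-like cells in the FMD library and 0.708% in the ad libitum library. The Ciart level in the same T cells was 17.0% of the B-like level in the FMD library and 9.22% in the ad libitum library. Ciart in these T cells was thus low, but a larger share of its B-like level than the B markers were of theirs. Cells with many UMIs of both these B markers and T markers had been removed, which limits the B marker share. The shares therefore cannot tell how much Ciart in T cells came from released RNA, which was not tested. In cells thinned to 1000 UMIs, 4.22% of FMD and 4.85% of ad libitum B-like cells held a Ciart UMI, against 1.15% of FMD and 1.14% of ad libitum helper or naive T-like cells. Without thinning, 490 of 2757 FMD and 616 of 3081 ad libitum B-like cells held one, at median depths of 5210 and 5064 UMIs. Among helper or naive T-like cells 30 of 615 did in FMD and 18 of 616 in ad libitum, at medians of 7085 and 6996.5 UMIs.

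All 10 are protein-coding genes. In GRCm38, Ciart spans chr3:95878503-95882251 on the minus strand, Per1 chr11:69095217-69109960 on the plus strand and Arntl chr7:113207465-113314126 on the plus strand. Nr1d1 spans chr11:98767932-98775333 and Nr1d2 chr14:18204054-18239127, both on the minus strand. The bases before the starts of 4 of them are printed because E-boxes and the NR1D1 element are the sites through which the loops act. The 4 shown are Ciart, Per1, Nr1d1 and Nr1d2, each with a match to one of these elements. Cry1 and Cry2 had E-box matches too and are not printed. In the RefSeq promoter table (build GRCm38.p6), 9 of the 10 genes had an entry, and Per2 had none. The sequences printed here are read 5′ to 3′ on the gene's own strand and end 1 base before the start, and matches are in capitals. Capitals mark the E-box CACGTG, which reads the same on both strands. They also mark a related E-box, CACGTT, on either strand of the printed bases. In Per1 and Nr1d2 they mark the core AGGTCA, bound by NR1D1, NR1D2 and RORA, likewise on either strand. The intervals are chr3:95882229-95882478 for Ciart, chr11:69098699-69098948 for the first of 2 listed starts of Per1, chr11:98775378-98775627 for Nr1d1 and chr14:18239107-18239356 for Nr1d2.
Ciart: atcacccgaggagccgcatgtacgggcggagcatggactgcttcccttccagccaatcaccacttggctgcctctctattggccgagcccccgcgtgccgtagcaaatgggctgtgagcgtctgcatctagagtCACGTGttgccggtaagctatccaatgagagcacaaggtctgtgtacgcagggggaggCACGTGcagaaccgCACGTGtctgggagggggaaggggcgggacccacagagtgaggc
Per1: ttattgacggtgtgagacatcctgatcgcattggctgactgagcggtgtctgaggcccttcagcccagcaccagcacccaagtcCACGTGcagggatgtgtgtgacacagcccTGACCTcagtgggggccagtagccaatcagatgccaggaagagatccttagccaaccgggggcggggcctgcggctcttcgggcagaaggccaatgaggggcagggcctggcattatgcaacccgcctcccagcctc
Nr1d1: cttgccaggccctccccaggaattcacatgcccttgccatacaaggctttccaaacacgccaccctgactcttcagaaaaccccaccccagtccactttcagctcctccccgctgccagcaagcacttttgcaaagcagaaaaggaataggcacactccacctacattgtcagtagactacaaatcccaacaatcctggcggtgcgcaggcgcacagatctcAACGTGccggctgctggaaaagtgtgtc
Nr1d2: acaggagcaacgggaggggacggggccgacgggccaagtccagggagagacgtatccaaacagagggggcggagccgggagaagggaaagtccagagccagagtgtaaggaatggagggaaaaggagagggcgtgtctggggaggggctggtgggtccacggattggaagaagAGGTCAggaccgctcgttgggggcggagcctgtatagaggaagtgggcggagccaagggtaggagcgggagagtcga

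Ciart held 3 CACGTG matches, with first bases 116, 58 and 44 bases before the start, and Per1 held 1 at 166 bases and an AGGTCA match at 137 bases before it. Cry1 also had a CACGTG, 60 bases before its start, and a CACGTT at 79 bases. Cry2 had a CACGTT at 166 bases, and the other listed start of Per1 held none of the motifs searched. In all 32851 listed promoters of the same length, 6.02% held a CACGTG on either strand. Nr1d1 had no CACGTG but a CACGTT 28 bases before the start (3.85% of promoters hold one), and Nr1d2 an AGGTCA at 77 bases (14.0% of promoters). Per3 had 2 matches to the D-box letters TTATGTAA, which 0.819% of promoters hold. Neither the promoters of Dbp nor those of Arntl held any of the 6 motifs searched, which included TTACGTAA and the cAMP element TGACGTCA. A match is only a run of letters, and factor binding was not measured.

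Within the B-like class, Ciart differed between clusters in both libraries. The largest cluster over both libraries, led by Ebf1, Bank1 and Pax5 (B lineage transcription and signaling genes), had 78.2 CPM in FMD cells and 73.5 CPM in ad libitum cells. A cluster led by Apoe and Bhlhe41 had 94.6 CPM from 67 UMIs in FMD and 85.0 CPM from 105 UMIs in ad libitum cells, and Bhlhe41 is itself a clock repressor. A cluster led by heat shock genes had 73.5 and 72.0 CPM in FMD and ad libitum cells. A low cluster of many cells, led by Fcrla and Ccr6, had 23.7 CPM in FMD cells and 34.3 CPM in ad libitum cells. The intervals of the low cluster lay below those of the 3 high ones in each library. The cluster led by the interferon-induced Oasl1, Irf7 and Ifit3 had 40 Ciart UMIs in 129 FMD cells and 5 in 49 ad libitum cells, a log2 ratio of 1.64 [0.30, 3.34].

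**Figure D2:**
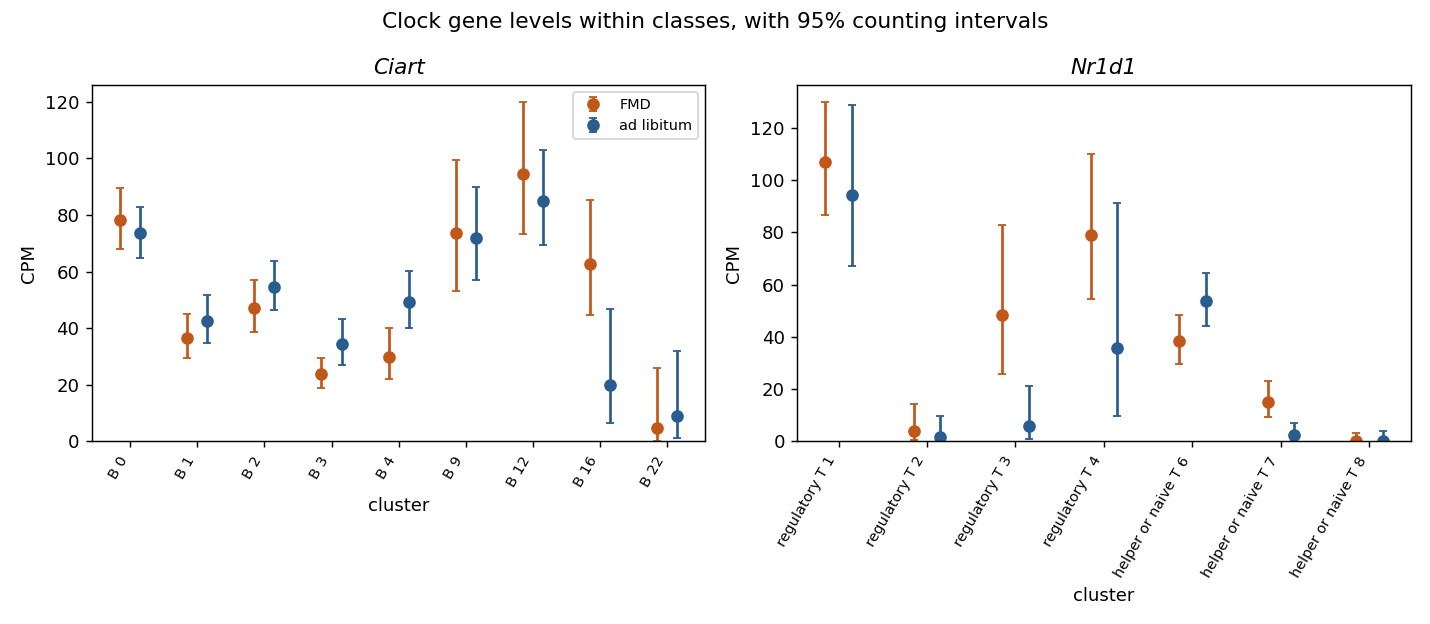
Levels in CPM with 95% counting intervals of Ciart in the clusters of B-like cells (left) and of Nr1d1 in the sub-clusters of regulatory T-like cells and the clusters of helper or naive T-like cells (right), FMD left of ad libitum. Ciart runs from 4.63 to 94.6 CPM over FMD B-like clusters, and Nr1d1 is near 0 in regulatory T sub-cluster 2 and helper or naive T cluster 8.

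Between the diets, Ciart in B-like cells was slightly lower in the FMD library, with a log2 ratio of −0.25 [−0.39, −0.10]. When the B-like clusters were given equal weights in both libraries the ratio was −0.09, with 50.1 CPM in FMD and 53.1 CPM in ad libitum. The heat-shock-led cluster, high in Ciart, held 124 FMD and 219 ad libitum cells, and the low cluster led by Fcrla held 543 FMD and 336 ad libitum cells. The antisense gene C920021L13Rik covers all of Ciart and had 44 FMD and 51 ad libitum UMIs. Whether counting used strand is not given in the sources used here, so reads of the pair cannot be told apart.

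Nr1d1, the repressor of Arntl, had the opposite distribution. B-like cells had 8 Nr1d1 UMIs in the FMD library (0.552 CPM) and 11 in the ad libitum library (0.698 CPM), in the most numerous class of both. Regulatory T-like cells, which hold immune responses in check, had 149 UMIs in 77 of 308 FMD cells (69.4 CPM [58.7, 81.4]) and 46 UMIs in 27 of 216 ad libitum cells (31.8 CPM [23.3, 42.4]). This level was 126-fold that of B-like cells in FMD and 45.6-fold in ad libitum, or 6.97 and 5.51 on the log2 scale. With thinned cells the log2 values were 8.10 in FMD and 4.44 in ad libitum, from 1 FMD and 4 ad libitum B-like cells with a UMI. Helper or naive T-like cells came next among the 6 large classes, with 20.4 CPM in the FMD and 26.5 CPM in the ad libitum library. Both were above CD8 T-like cells, at 3.16 and 4.41 CPM in FMD and ad libitum. Gamma delta T-like cells, which are few, had 112 CPM from 41 UMIs in the FMD library and 46.9 CPM from 27 UMIs in the ad libitum library. Neutrophil-like cells had no Nr1d1 UMI in either library, which at their depth allows up to 18.1 CPM in FMD and 11.9 CPM in ad libitum cells.

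The T cells with Nr1d1 were not spread evenly. Among helper or naive T-like cells, a cluster with Il17a (117 CPM in FMD, 469 CPM in ad libitum) had 38.3 CPM of Nr1d1 in FMD cells and 53.6 CPM in ad libitum cells. Il17a encodes the signature cytokine of type 17 T cells. This cluster was led by Tnfsf11 and Il18r1, and 33 of its 229 FMD and 60 of its 277 ad libitum cells held an Il17a UMI. Whether the same cells held Nr1d1 was not tested. A second cluster, led by Tnfsf8, Izumo1r and Tbc1d4, had 20 UMIs in 195 FMD cells and 3 in 181 ad libitum cells (2.62 [0.87, 5.01]). In another cluster, led by Igfbp4 and Lef1, genes of naive T cells, no Nr1d1 UMI was found in either library, which allows up to 3.01 CPM in FMD and 3.77 CPM in ad libitum cells. Nr1d1 was therefore found in both libraries in the Il17a-bearing cluster and not detected in the naive-like one.

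The regulatory T-like class was likewise uneven, in sub-clusters made after its values were seen and without the clock genes. Sub-cluster 1, with much Il10 (633 CPM in FMD, 575 CPM in ad libitum) and little Ikzf2 (137 CPM in FMD, 229 CPM in ad libitum), had 107 CPM of Nr1d1 in FMD cells (100 UMIs) and 94.2 CPM in ad libitum cells (39 UMIs). Ikzf2 encodes HELIOS, common in regulatory T cells from the thymus, and Il10 encodes an anti-inflammatory cytokine. Sub-cluster 2, with much Ikzf2 (2110 CPM in FMD, 2000 CPM in ad libitum) and Penk, had Nr1d1 at 3.91 CPM in FMD cells (2 UMIs) and 1.73 CPM in ad libitum cells (1 UMI). Sub-cluster 3 had 48.4 CPM from 13 UMIs in FMD cells and 5.86 CPM from 2 UMIs in ad libitum cells. Sub-cluster 4, with Il10 and some Il17a, had 78.9 CPM in FMD cells (34 UMIs) and 35.7 CPM in ad libitum cells (4 UMIs).

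The log2 ratio of Nr1d1 in regulatory T-like cells was 1.13 [0.64, 1.64], a 2.19-fold higher level in the FMD library. It was the only 1 of 5 clock genes with at least 100 UMIs in that class past 1.5-fold. Among all 4646 genes measured there, 2.99% were past 1.5-fold higher, 2.02% past 1.5-fold lower and 5.02% past it in either direction. The make-up of the class differed as well: sub-cluster 1 held 42.5% of FMD and 29.6% of ad libitum regulatory T-like cells, and sub-cluster 2 held 25.0% and 37.0%. With sub-cluster shares held equal the Nr1d1 ratio was 0.67, from 61.8 CPM in FMD and 39.0 CPM in ad libitum. Within sub-cluster 1 alone it was 0.18 [−0.37, 0.75].

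The class was also divided by single markers, a division chosen after these values were seen. Regulatory T-like cells without an Ikzf2 UMI were 46.1% of the class in FMD and 27.3% in ad libitum, and their Nr1d1 levels were 102 CPM in FMD and 99.7 CPM in ad libitum (log2 ratio 0.03 [−0.54, 0.64]). Cells with an Ikzf2 UMI had 39.3 CPM in FMD (44 UMIs) and 10.9 CPM in ad libitum (12 UMIs), a ratio of 1.86 [0.91, 2.91]. The libraries thus differed in the level among cells with an Ikzf2 UMI and in the shares of both kinds, while the interval for cells without one spans 0. Divided by Il10 instead, cells with an Il10 UMI had 73.6 CPM of Nr1d1 in FMD and 53.7 CPM in ad libitum (0.45 [−0.23, 1.19]). Cells without an Il10 UMI had 64.6 CPM in FMD and 22.6 CPM in ad libitum (1.52 [0.81, 2.27]). A missing Ikzf2 or Il10 UMI does not show that a cell lacks the gene's RNA. Thra, which overlaps Nr1d1 by 1075 bases on the other strand, had 53 UMIs in FMD and 18 in ad libitum regulatory T-like cells, a ratio of 0.99 [0.19, 1.85]. Thra thus moved with Nr1d1, and its part in the Nr1d1 count was not tested.

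**Figure D3:**
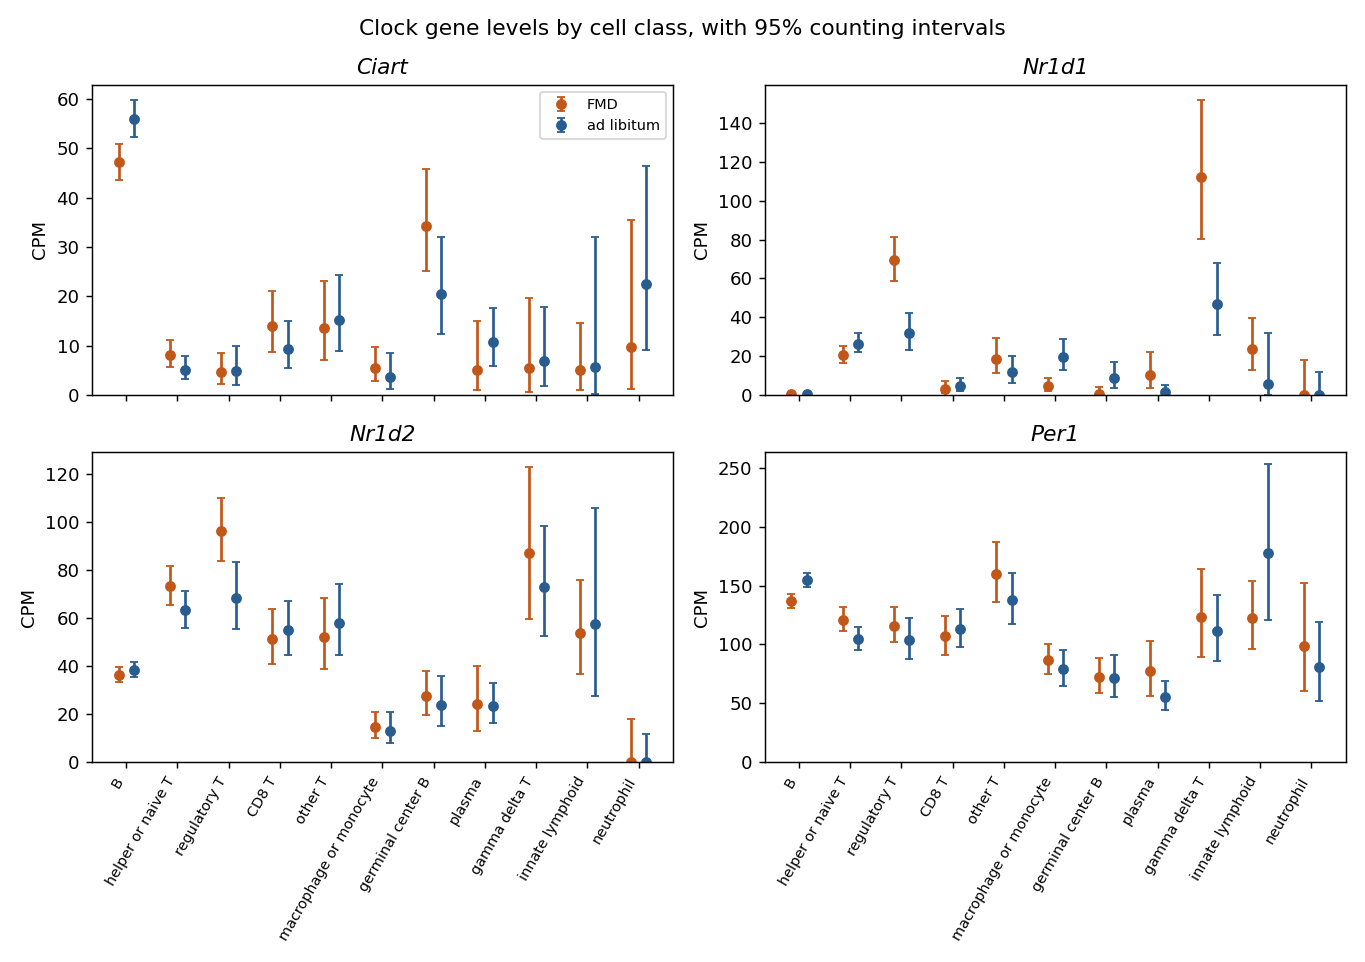
Levels in CPM with 95% counting intervals of Ciart, Nr1d1, Nr1d2 and Per1 in 11 cell classes, FMD left of ad libitum. The Ciart intervals of B-like cells lie above those of every T-like class shown, and the Nr1d1 intervals of B-like cells lie below those of helper and regulatory T-like cells.

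Nr1d2, the paralog of Nr1d1, was also high in T cells but was well detected in B cells. Among the 6 large classes it was highest in regulatory T-like cells, at 96.4 CPM [83.7, 110] in FMD and 68.4 CPM [55.6, 83.3] in ad libitum. Helper or naive T-like cells had 73.2 CPM in FMD and 63.2 CPM in ad libitum. B-like cells had 36.3 CPM in FMD and 38.5 CPM in ad libitum, and macrophage or monocyte-like cells 14.8 and 13.1 CPM. The helper T-like level was 2.02-fold the B-like level in FMD and 1.64-fold in ad libitum, and 4.93-fold and 4.81-fold the macrophage level. In regulatory T-like cells the diet ratio was 0.49 [0.14, 0.85], below the 1.5-fold mark, and 0.36 at equal sub-cluster shares.

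Arntl, the gene of BMAL1 and the target of both repressors, was high in the same classes as Nr1d2 rather than low there. Its levels were 50.3 CPM in FMD and 49.8 CPM in ad libitum regulatory T-like cells, and 35.3 CPM in FMD and 40.2 CPM in ad libitum helper or naive T-like cells. B-like cells had 14.1 CPM in FMD and 17.1 CPM in ad libitum. Macrophage or monocyte-like cells had 4.64 CPM (10 UMIs) in FMD and 6.56 CPM (9 UMIs) in ad libitum, so that helper T-like cells were 7.62-fold and 6.12-fold higher in these libraries. Over the 12 points given by 6 classes and 2 libraries, Arntl and Nr1d2 levels correlated with a Pearson r of 0.88. This is a description only, since the points share libraries and cells. Clock, whose product pairs with that of Arntl, was higher in B-like than in helper or naive T-like cells, with 49.4 CPM in FMD and 47.1 CPM in ad libitum B-like cells, against 32.6 CPM in FMD and 32.2 CPM in ad libitum helper or naive T-like cells. In regulatory T-like cells, where Arntl was high, Clock had 50.3 CPM in FMD and 39.4 CPM in ad libitum, and in macrophage or monocyte-like cells 28.3 CPM in FMD and 21.1 CPM in ad libitum. Npas2, which can replace Clock, had 18 UMIs in all FMD cells and 12 in all ad libitum cells.

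Per1 was fairly even. Over the same 6 classes its highest level was 1.84-fold its lowest in FMD and 1.97-fold in ad libitum, and for Cry1 these spreads were 1.95-fold in FMD and 1.87-fold in ad libitum. Its partners in the Per family were rare: among the 6 large classes Per2 was highest in B-like cells, with 5.38 CPM in FMD (78 UMIs) and 3.74 CPM in ad libitum (59 UMIs), and had 4 FMD and 5 ad libitum UMIs in helper or naive T-like cells. Per3, which lies within the span of Camta1 on the same strand, had 41 FMD and 47 ad libitum UMIs in B-like cells. Cry1, the cryptochrome with the more UMIs, had similar levels in the most numerous classes, with 34.4 CPM in FMD and 29.2 CPM in ad libitum B-like cells and 38.1 CPM in FMD and 31.9 CPM in ad libitum helper or naive T-like cells. It ranged more widely over smaller classes, with 79.1 CPM in FMD and 67.7 CPM in ad libitum gamma delta T-like cells and 16.4 CPM in FMD and 16.2 CPM in ad libitum germinal center B-like cells. Cry2 was higher in B-like than in helper or naive T-like cells, by 0.85 [0.28, 1.47] on the log2 scale in FMD and 0.83 [0.21, 1.52] in ad libitum. Dbp, the output factor, had 104 UMIs in FMD and 102 in ad libitum B-like cells (7.18 CPM and 6.47 CPM).

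Few clock genes stood apart between the diets. Over all kept cells, 0 of the 10 genes were past 1.5-fold, where 2.18% of 10639 genes were past it upward, 1.52% downward and 3.70% in either direction. In B-like cells 0 of the 8 genes with 100 UMIs or more were past it, against 0.643% upward, 0.723% downward and 1.37% in all of 8715 genes. In helper or naive T-like cells 0 of 5 were, against 1.13% upward, 1.57% downward and 2.70% in all of 6707 genes. In CD8 T-like cells 0 of 2 were (0.838% upward, 2.21% downward and 3.05% in all). In T cells of no named subclass 0 of 2 were (4.01% upward, 1.54% downward and 5.55% in all). In macrophage or monocyte-like cells 0 of 1 was (3.99% upward, 5.71% downward and 9.70% in all). These counts of 0 lie near the background shares.

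**Figure D4:**
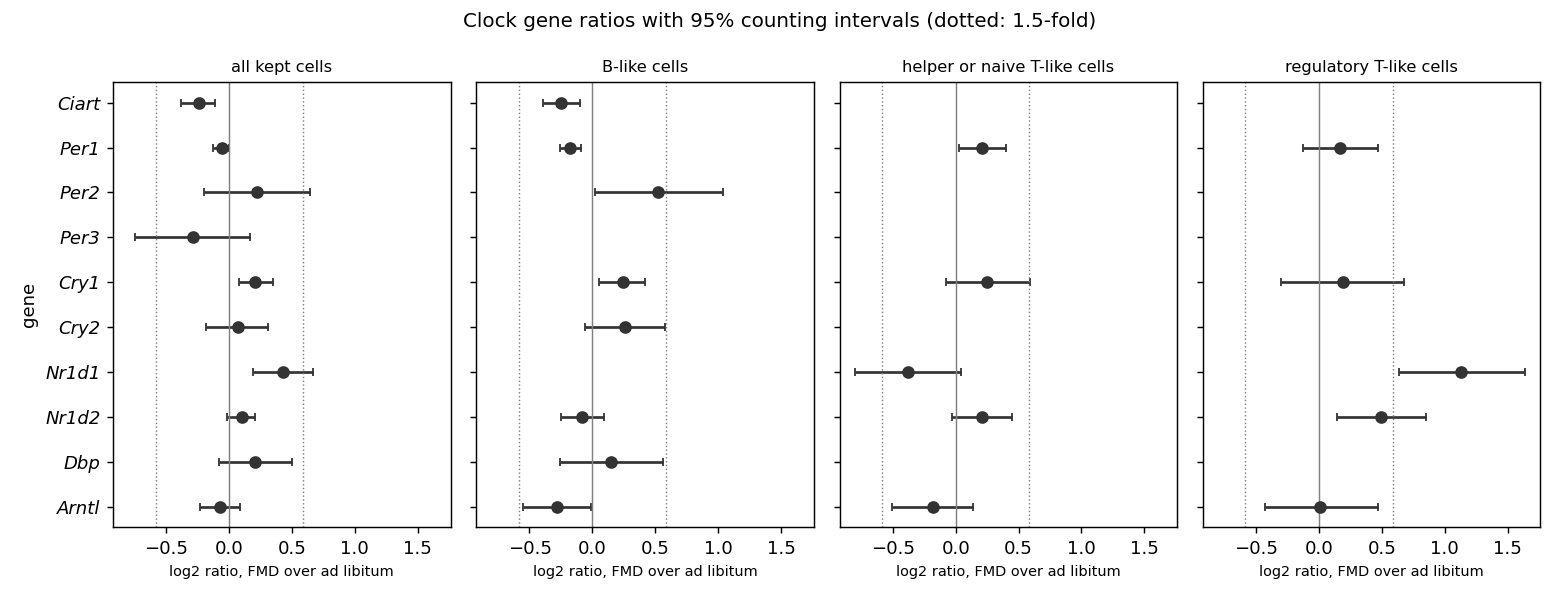
Log2 ratio of FMD over ad libitum for each clock gene that reached 100 UMIs in the cells named above each panel, with 95% counting intervals and dotted lines at 1.5-fold. Only Nr1d1 in regulatory T-like cells lies past a dotted line.

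Some smaller ratios had counting intervals away from 0. Over all kept cells Ciart was at −0.24 [−0.38, −0.11], Cry1 at 0.21 [0.08, 0.35] and Nr1d1 at 0.43 [0.19, 0.67]. The Nr1d1 value was 0.25 when the classes had the same weights in both libraries. In B-like cells Cry1 was at 0.24 [0.05, 0.42], Per2 at 0.52 [0.02, 1.04], Arntl at −0.28 [−0.55, −0.01] and Per1 at −0.18 [−0.26, −0.09]. In B-like cells Ciart, Per1 and Arntl were thus on the lower side and Cry1 and Per2 on the higher side in FMD. With cells thinned to 1000 UMIs, and so from fewer UMIs, the Per1 ratio there turned to 0.09 and that of Ciart was −0.09. The median of the 8 measured genes was 0.03 in B-like cells, beside 0.00 for all genes, and the middle 95% of all genes ran from −0.41 to 0.36. Per2 lay outside that range.

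Per1 also belongs to the fast-responding genes, and the median of these lay on the same side of 0 as Per1 in both classes. In B-like cells Per1 had 137 CPM in FMD and 155 CPM in ad libitum, and the 17 immediate early and cAMP-induced genes, Per1 among them, had a median log2 ratio of −0.28. In helper or naive T-like cells Per1 had 121 CPM in FMD and 105 CPM in ad libitum (0.21 [0.03, 0.40]), and the same 17 genes had a median of 0.16. Egr1, a first-wave transcription factor, was 243 CPM in FMD and 388 CPM in ad libitum B-like cells (−0.67 [−0.73, −0.61]). The 9 heat shock genes, which rise in stressed or handled cells, had medians of −0.39 in B-like and −0.27 in helper or naive T-like cells, with Hspa1a at 431 CPM in FMD and 737 CPM in ad libitum B-like cells (−0.78), Hspa1b at −0.64 and Dnajb1 at −0.68. The part of tissue handling in the Per1 values was not tested.

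**Figure D5:**
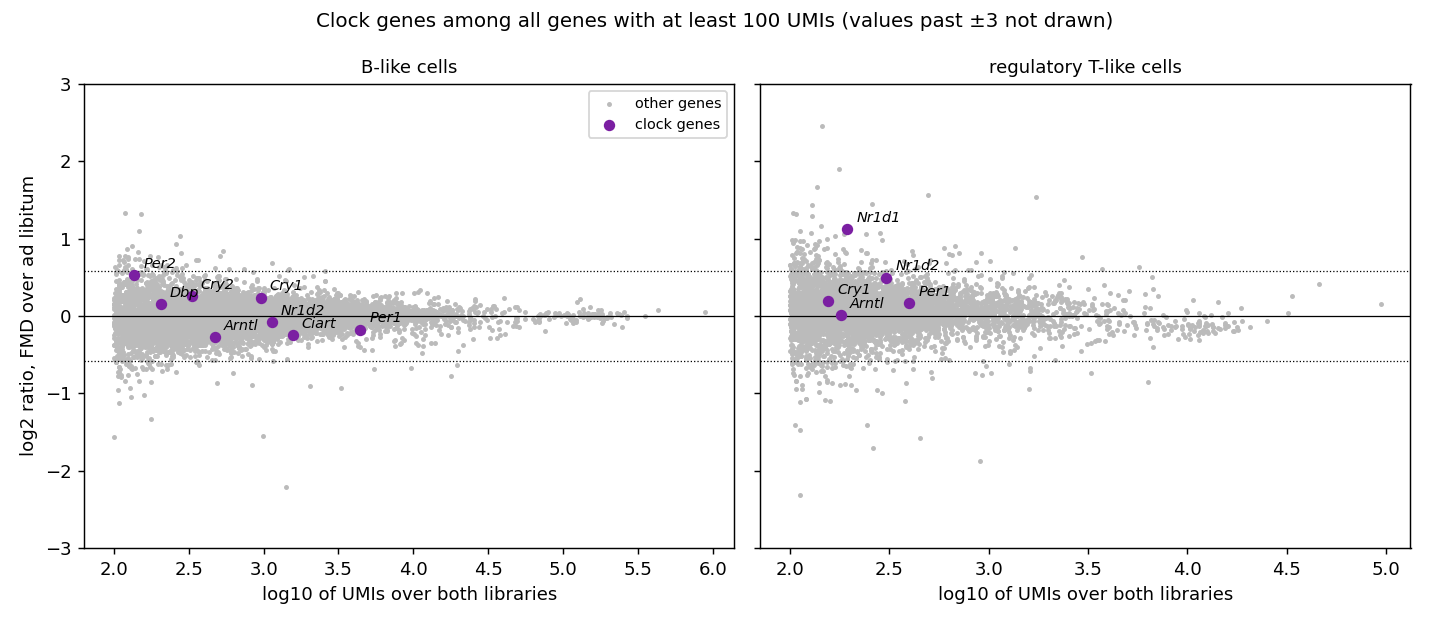
Log2 ratio of FMD over ad libitum against the log10 of UMIs over both libraries for all genes with at least 100 UMIs, in B-like (left) and regulatory T-like cells (right), clock genes in purple. The clock genes lie inside the 1.5-fold lines except Nr1d1 at 1.13 in regulatory T-like cells.

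Other genes of the clock loop were counted in the same way. Of 27 further loop genes, 25 had at least 100 UMIs over all kept cells, 0 were past 1.5-fold and their median was 0.05. Nfil3, a D-box repressor and target of NR1D1, was at 76.8 CPM in FMD and 57.9 CPM in ad libitum (0.41 [0.32, 0.50]). Rora, an activator of Arntl, was at 303 CPM in FMD and 253 CPM in ad libitum (0.26). Bhlhe40, a repressor at E-boxes, was at 412 CPM in FMD and 363 CPM in ad libitum (0.18), while its paralog Bhlhe41 was at 18.0 and 23.1 CPM (−0.36 [−0.53, −0.19]). Tef, a relative of Dbp, was at 12.7 CPM in FMD and 13.0 CPM in ad libitum, and Clock at 40.2 and 39.3 CPM. Hlf, another relative of Dbp, named after its value was seen, was the 1 loop gene of 15 past 1.5-fold in regulatory T-like cells, at 59.1 CPM in FMD and 29.0 CPM in ad libitum (1.03 [0.51, 1.57]), where 2.99% of all genes were past it upward. In B-like cells the 1 of 21 was Noct, which encodes nocturnin and is rhythmic in many organs, at 2.55 CPM in FMD and 4.38 CPM in ad libitum (−0.78 [−1.39, −0.18]), where 0.723% of all genes were past it downward. In helper or naive T-like cells the 1 of 19 was Nampt, an enzyme of NAD synthesis, at 42.5 CPM in FMD and 25.8 CPM in ad libitum (0.72 [0.37, 1.07]), where 1.13% were past it upward. In T cells of no named subclass 2 of 8 were higher, Rora at 409 CPM in FMD and 192 CPM in ad libitum (1.09) and Bhlhe40 at 899 and 501 CPM (0.84), where 4.01% of all genes were. In macrophage or monocyte-like cells 1 of 13 was higher, Rora (1.57), and 2 were lower, Nampt (−0.78) and Noct (−0.81), where 3.99% of all genes were higher and 5.71% lower. These genes past 1.5-fold in classes of T cells and macrophages were named after their values were seen.

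Genes that respond to fasting and to stress hormones had medians near that of all genes over all kept cells, though not in each class. The 14 measured genes rhythmic in many mouse organs had a median of 0.02 over all kept cells, the 14 glucocorticoid-induced genes −0.04, and the 14 measured fasting and FOXO genes −0.02, beside 0.01 for all genes. In B-like cells the 13 measured glucocorticoid-induced genes, Per1 among them, had a median of −0.18 [−0.26, −0.09], beside 0.00 for all genes. Over all kept cells Tsc22d3, a glucocorticoid-induced gene, was at 508 CPM in FMD and 586 CPM in ad libitum (−0.21 [−0.24, −0.17]). Sgk1, a glucocorticoid-induced kinase, was past 1.5-fold lower in B-like cells, at 5.11 CPM in FMD and 7.87 CPM in ad libitum, and Il7r, a cytokine receptor of FOXO-driven expression, past 1.5-fold higher, at 4.69 CPM in FMD and 3.11 CPM in ad libitum. The temperature-sensitive Cirbp was at 166 CPM in FMD and 178 CPM in ad libitum over all kept cells (−0.10), and Rbm3 at 921 and 953 CPM (−0.05). Usp2, rhythmic in many organs, was at 5.57 and 5.55 CPM, and Tspan4 had 36 FMD and 25 ad libitum UMIs.

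The genes most like the clock genes over the 12 class and library points were ranked by Pearson r among 8778 genes. For Ciart they were Pmf1 and Smg1 (both 0.98) and Ptp4a3 (0.97), and for Nr1d1 Erbin and March2 (both 0.96) and Mrps6 (0.95). For Nr1d2 they included Cnot1 and Herc2 (both 0.98), and for Arntl Mien1 (0.97), Dcaf15 (0.96) and Dazap1 (0.95). Per1 was closest to Qtrt1 and Carns1 (both 0.96) and Zbtb20 (0.94), and Cry1 to Uba2 (0.95), Pitpnb and Nek9 (both 0.93). Cry2 was closest to Sf3b4 (0.91), Farsa (0.90) and Wdr18 (0.84), and Dbp to Cdk13 (0.93), Rundc1 (0.92) and Mrpl15 (0.87). These values rank likeness over few points that share libraries. Of 5029 genes measured in at least 3 classes, 3 were past 1.5-fold the same way in each, AA467197, Mcub and Slc15a2, all lower in FMD, and no clock gene was among them.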

How the data were processed

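CD45+ cells of 1 FMD and 1 ad libitum library were used. The submitters' processing notes list the build GRCm38 and, without their roles, Seurat 2.3.4, Cell Ranger 3.1.0 and CASAVA 1.8. The deposited matrices hold counts, raw UMI counts per gene and barcode, and no barcode had fewer than 500 UMIs. Cells were kept with at least 200 genes and at most 20% mitochondrial UMIs. Scrublet called 2 doublets per library (0.04%), too few to have worked, so cells with at least 5 UMIs and 0.5 per 1000 UMIs of 2 of 3 lineage panels were also removed (150 FMD and 101 ad libitum in all). Both libraries were clustered together in scanpy 1.11.5 (2000 variable genes, 30 components, 15 neighbors, leidenalg 0.10.2 at resolution 1, seed 1), giving 25 clusters. Clusters were named from marker lists by a rule set after the clusters were seen, so names may differ from the study's. Regulatory T-like cells were clustered again at resolution 0.5 with clock genes left out.

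Genes were counted against 1.5-fold where a class had 100 cells or more per library and a gene 100 UMIs or more in that class, both libraries added. Ratios of single genes below these limits, in classes, clusters and sub-clusters, are given with their intervals or UMIs and enter no count. Intervals were exact Poisson or binomial. The interval method was tested on simulated data drawn from the Poisson model that it assumes. That test does not cover UMIs gathered in single cells. All members were named in those classes, with a fixed set of other loop genes, list members past 1.5-fold and the 3 genes most like each member with at least 300 UMIs. Some genes of this set are not reported here. The members and lists were chosen with earlier results of these data known. Alternatives included edgeR 4.0.16 TMM factors of class sums. Counting intervals and the limit for a count of 0 (3 counts, or the exact interval) cover counting error only.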

Additional observations from a re-analysis of the deposited data

Results flagged for a closer look

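Per1 differed in direction between classes. Its log2 ratio of FMD over ad libitum was 0.21 in helper or naive T-like cells and −0.18 in B-like cells, with counting intervals on opposite sides of 0. With cells thinned to 1000 UMIs the B-like value was 0.09, on the other side of 0 from the reported −0.18. The thinned value rests on fewer UMIs, and the cause of this change of sign was not tested. The difference between the classes was not tested.

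Nr1d1 was at 1.13 in regulatory T-like cells and −2.08 in macrophage or monocyte-like cells. Among the macrophage or monocyte-like cells, 23 of the 27 ad libitum UMIs came from 1 cell, beside 10 FMD UMIs in 5 cells. The difference between the classes was not tested.

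Arntl was at 1.26 in T cells of no named subclass, from 33 FMD and 16 ad libitum UMIs, and at −0.28 in B-like cells, from 204 FMD and 269 ad libitum UMIs. The difference between the classes was not tested.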

How the results depend on the processing

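No paired analysis was possible because each diet has 1 library. Of 617 values under alternatives, 583 kept within the interval or count limit of the reported value and 34 moved. The counts of clock genes at least 1.5-fold higher in FMD were 0 in all kept, B-like and helper or naive T-like cells. With cells thinned to 1000 UMIs, and genes entering from 20 UMIs in place of 100, they were 1 in all kept and 2 in B-like cells. The same limit of 20 UMIs held for the list medians of thinned cells. In B-like cells the count was 1 with a marker score per cell and 1 with the cluster mix held equal (added after seeing the data), and in helper or naive T-like cells 1 with at least 20 UMIs and 1 with no filter. The Nr1d1 ratio of regulatory T-like cells was 1.82 with thinned cells and 0.67 with the sub-cluster mix held equal (added after seeing the data), against 1.13. The log2 fold of Ciart in B-like over helper or naive T-like cells was 1.74 in FMD and 2.40 in ad libitum with doublets kept, and 2.05 in FMD and 1.97 in ad libitum with thinned cells. Thinned cells also gave 4.44 for Nr1d1 in regulatory T-like and 3.63 in helper or naive T-like over B-like cells of the ad libitum library, and 2.12 for Arntl in helper or naive T-like over B-like cells of the FMD library. Nr1d2 in helper or naive T-like over B-like ad libitum cells was 0.95 at Leiden resolution 0.5. At that resolution, and with doublets kept, classes were formed anew. A cluster led by Igfbp4 and Lef1 then fell outside the helper or naive T-like class. The glucocorticoid-induced median was −0.13 in all kept and −0.28 in B-like thinned cells, and the cold-inducible median −0.14 and −0.13 in the same cells and −0.03 in all kept cells divided by all UMIs. Without the heat-shock-led B-like cluster (added after seeing the data) the heat shock median was −0.20 in all kept and −0.20 in B-like cells. Of 352 alternative values of 27 single ratios, 12 lay outside the reported interval. With thinned cells the ratio of Per1 was 0.13 in all kept cells (−0.06 reported) and 0.09 in B-like cells (−0.18), Nr1d2 in B-like cells 0.16 (−0.08), Arntl in helper or naive T-like cells 0.40 (−0.18) and Cry1 in regulatory T-like cells −0.68 (0.19), each with the other sign. Thinning left 1000 UMIs per cell, so these values rest on fewer UMIs than those reported. Their own intervals are not given here, and the cause was not tested. Depth limits Per2, Per3, Dbp and Cry2 outside B-like cells, where no class of a library had more than 43 UMIs of any of them.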
